A study of Caenorhabditis elegans with 2 samples.

Results

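The 9 genes described here act in the nucleolus or in the assembly of ribosomes: fib-1, utp-20, nol-10, lpd-7, nst-1, pro-2, pro-3, ncl-1 and rpoa-2. They are 9 of 19973 protein-coding genes on the nuclear chromosomes of Caenorhabditis elegans. The genes were chosen by name with their peaks in these data already known, so their peak counts and signals are given as a description and carry no test. Chromatin immunoprecipitation with sequencing (ChIP-seq) had been done with an antibody against GFP on whole young adult hermaphrodites. The strain, OP429, carries the unc-119(tm4063) allele on chromosome III and the transgene insertion wgIs429, from which F23B12.7 is made with a GFP-FLAG tag at its C-terminal end. There were 2 biological replicates of this 1 group and no second condition, and whole animals mix all tissues. The age of the worms is given as unknown, and the labels do not say which promoter drives the fusion.

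Ribosomes are built in the nucleolus, where RNA polymerase I transcribes the rRNA precursor and small nucleolar ribonucleoproteins (snoRNPs) modify it. Large sets of assembly factors then cut and fold the RNA into the precursors of the small and the large subunit. In C. elegans the nucleolus is large in the germ line and in cells that grow, and ncl-1 is the gene known from mutants with enlarged nucleoli.

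A peak is an entry of the authors' peak lists, and its summit is the base they gave as its highest point. The authors' set that passed a test of the irreproducible discovery rate (IDR) held 1707 peaks, called reproducible peaks below, and these were the 1707 peaks of highest signal in the list pooled from both replicates. The pooled list is labelled as peaks and background for input to that test, so its weaker entries need not be enriched. It holds 30000 entries, as does each replicate list. Signal is the authors' value for a peak on a scale that belongs to its list, so between lists ranks are compared, with rank 1 the strongest of 30000. A gene has a peak here when a summit lies within 500 bp of the annotated start of the gene, and negative positions are upstream of it. Read totals were not in the lists, so depth is unknown, and no interval that needs it is given. All coordinates are in ce11.

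Of the 9 genes, 5 had a reproducible peak: utp-20, fib-1, lpd-7, nol-10 and nst-1. The share among all protein-coding genes was 6.72%, and nothing is read from the difference because the peaks were known when the genes were chosen. All 5 summits were upstream of the start, at a median of −214 bp, against −191.5 bp for the 1342 coding genes with a reproducible peak. Their median signal was 68.5 against 53.9 for those genes. Many worm messages are trans-spliced, so an annotated start need not be where transcription begins. The other 4 genes, rpoa-2, ncl-1, pro-3 and pro-2, had none in reach. The sequences at the 5 summits are shown first, as the reference genome bases around each called summit. Each line runs 5′ to 3′ on the strand of the gene, up to 100 bases on each side of the summit and not past the gene start. Capitals mark CCAAT and GAGA on either strand, so also ATTGG and TCTC. The bases were read from the RefSeq copy of WBcel235, the same build as ce11, at chrV:15002224-15002405 (minus strand) for fib-1, chrII:6536060-6536260 (plus) for utp-20, chrIV:7580306-7580506 (plus) for nol-10, chrIII:7572993-7573193 (plus) for lpd-7 and chrII:8283356-8283556 (minus) for nst-1.
fib-1: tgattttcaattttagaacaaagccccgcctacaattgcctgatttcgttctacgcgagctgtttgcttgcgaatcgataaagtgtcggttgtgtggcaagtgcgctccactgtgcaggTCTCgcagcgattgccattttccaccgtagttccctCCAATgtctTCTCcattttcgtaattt
utp-20: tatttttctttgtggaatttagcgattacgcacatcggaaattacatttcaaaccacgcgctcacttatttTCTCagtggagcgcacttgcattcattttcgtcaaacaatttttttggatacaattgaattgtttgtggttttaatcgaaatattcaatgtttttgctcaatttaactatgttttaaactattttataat
nol-10: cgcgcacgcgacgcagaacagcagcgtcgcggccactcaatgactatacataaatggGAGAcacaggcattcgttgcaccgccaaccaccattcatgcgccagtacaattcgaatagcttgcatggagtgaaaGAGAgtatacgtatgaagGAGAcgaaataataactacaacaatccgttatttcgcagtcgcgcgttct
lpd-7: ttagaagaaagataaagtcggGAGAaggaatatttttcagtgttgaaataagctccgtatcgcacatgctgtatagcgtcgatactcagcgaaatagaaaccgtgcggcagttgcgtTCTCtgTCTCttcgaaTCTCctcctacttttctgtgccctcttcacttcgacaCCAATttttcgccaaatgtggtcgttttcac
nst-1: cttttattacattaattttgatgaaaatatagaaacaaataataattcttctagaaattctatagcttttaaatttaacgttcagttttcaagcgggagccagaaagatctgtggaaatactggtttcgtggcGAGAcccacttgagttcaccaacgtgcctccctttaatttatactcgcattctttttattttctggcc

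The stretches at fib-1 and utp-20 held a run of 17 identical bases in opposite orientation. At fib-1 the run covered −86 to −70 bp (chrV:15002293-15002309, minus strand) and the summit itself. At utp-20 it covered −240 to −224 bp (chrII:6536134-6536150, plus strand) and, counted from the summit, −26 to −10 bp. It is printed in full because no other pair of these 5 stretches shared more than 9 bases. Each is written on its gene's own strand.
fib-1: GCAAGTGCGCTCCACTG
utp-20: CAGTGGAGCGCACTTGC

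Those 2 summits were the only ones among the 1684 nuclear reproducible peaks that held the whole run within 100 bases of the summit. It occurred 24 times on the nuclear chromosomes, and in 3 of 19973 windows of the same length centred 200 bp upstream of a coding start. A core of 10 bases within it, GAGCGCACTT, was in 44 of the 1684 summit windows (2.61%) and in 62 of the upstream windows (0.310%), read on both strands. Of the 19 further ribosome assembly genes with a reproducible peak that are described below, nsun-5 alone had it. The core was chosen as the 10 bases of the run found at the most summits, which by itself raises its share at summits over that in upstream windows. Run and core were picked after the sequences were seen, so nothing is read from the difference and no test was made.

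The snoRNP gene of the set is fib-1, which encodes fibrillarin, the methyltransferase that modifies rRNA at sites chosen by guide RNAs (WBGene00001423, chromosome V, 15000651 to 15002223, minus strand). Its pooled peak had a signal of 83.7 and ranked 245 of 30000, with the summit at −82 bp (15002127 to 15002482). The peak ranked 349 in replicate 1 and 124 in replicate 2, with signals of 46.1 and 42.3 on the scales of those lists. Its summit lay nearest to the start of all 5, and in replicate 2 it was nearer still, at −42 bp against −89 bp in replicate 1. The start of mut-15, a gene of the small RNA machinery that amplifies RNA interference, lies at −320 bp and points the other way, and the summit was at −238 bp from it.

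Both members of small subunit assembly had a peak of high rank. The strongest of all was at utp-20, the counterpart of a yeast protein of the small subunit processome (WBGene00007050, chromosome II, 6536374 to 6554923, plus strand). Its signal was 112 and its pooled rank 89 (6535982 to 6536337). In replicate 1 the signal was 63.2 and the rank 122, and in replicate 2 the signal was 45.6 and the rank 87. The summit was at −214 bp in replicate 1 and in the pooled list, and at −225 bp in replicate 2, a shift of 11 bp. No other coding start lay within reach of this peak. The upstream gene abcx-1 is on the same strand and ends 918 bp before utp-20, and among the 5 peaks that of utp-20 alone was at a single coding start.

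At nol-10, the counterpart of another yeast factor of the small subunit processome, the pooled signal was 67.6 and the rank 437 (WBGene00017989, chromosome IV, 7580597 to 7583726, plus strand, peak 7580228 to 7580583). The signal was 43.1 at rank 426 in replicate 1 and 26.2 at rank 555 in replicate 2. The log2 ratio of these ranks, replicate 1 over replicate 2, was −0.38, the smallest in size of the 5, and that of utp-20 was 0.49. Summits were at −197 bp and −153 bp. The peak lies between nol-10 and cec-5, a chromodomain gene whose start is at −485 bp on the other strand.

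Among the 4 genes of large subunit assembly, lpd-7 and nst-1 had a reproducible peak and pro-2 and pro-3 had none. The lpd-7 gene encodes the worm Pescadillo protein, which in yeast and mammals acts in the maturation of the large subunit rRNAs (WBGene00003063, chromosome III, 7573350 to 7575263, plus strand). Its pooled signal was 68.5 and its rank 427, with the summit at −257 bp (7572915 to 7573270). The signal was 43.1 at rank 427 in replicate 1 and 21.1 at rank 985 in replicate 2, so this peak stood lower in replicate 2. This summit was at −262 bp from rpl-9, a gene of a large subunit ribosomal protein on the other strand, so it lay almost midway between the starts of both genes. A short gene annotated as ncRNA, R13A5.16, lies within the peak on the strand of lpd-7, and the summit was at −28 bp from its start.

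The peak at nst-1, which encodes the GTPase nucleostemin, was the weakest of the 5 (WBGene00003821, chromosome II, 8281162 to 8283208, minus strand). Its pooled signal was 40.5 and its rank 1523 (8283278 to 8283633), close to the lowest reproducible signal of 37.99. The signal was 22.6 at rank 830 in replicate 2 and 17.4 at rank 3490 in replicate 1. The −log10 q was 1.57 in replicate 1 and 3.05 in replicate 2, where 3.05 was also the value of the other 4. With the 1707 strongest peaks of replicate 1 alone nst-1 had no peak, and with those of replicate 2 alone it did. The summit, at −248 bp, was nearer to the divergent gene cct-4, a subunit of the cytosolic chaperonin, from whose start it was at −211 bp. When each peak was counted for its nearest coding start alone, nst-1 had none.

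**Figure D1:**
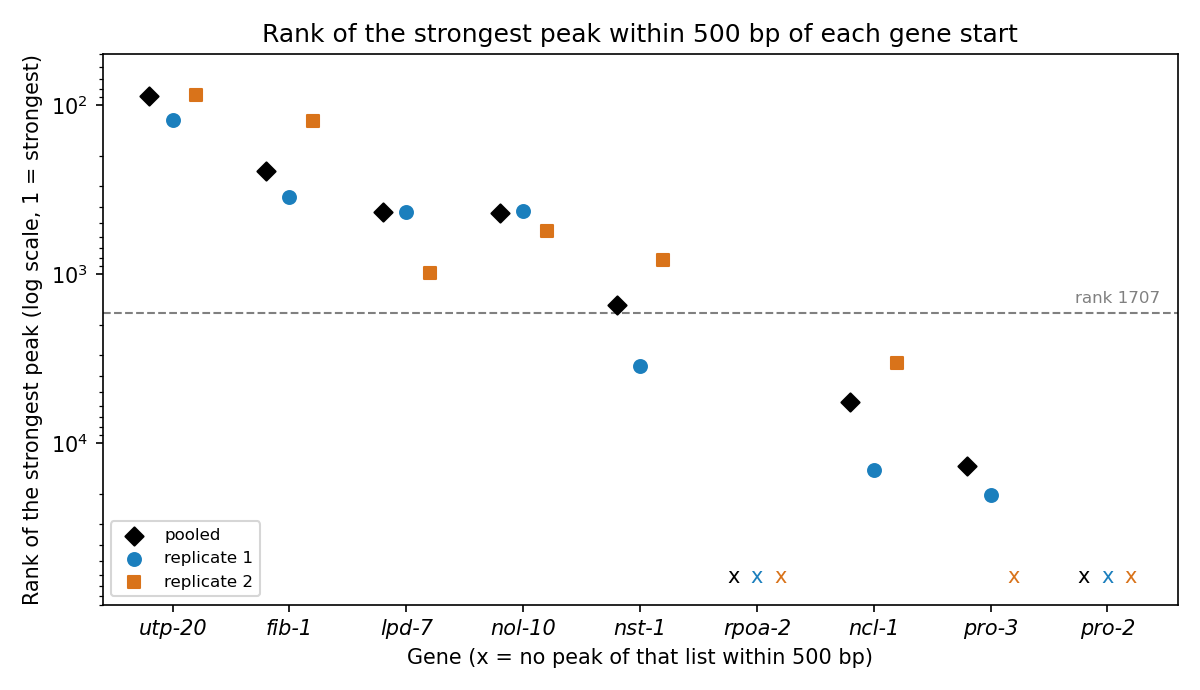
Rank of the strongest peak within 500 bp of each gene start (log axis, 1 the strongest of 30000) in the pooled list (diamonds), replicate 1 (circles) and replicate 2 (squares); a cross marks a list with no peak in reach, and the dashed line is rank 1707. At the left, utp-20, fib-1, lpd-7 and nol-10, lie above the line in every list, nst-1 lies on both sides of it, and ncl-1 and pro-3 lie below it.

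The members without a reproducible peak did not look alike. The pro-2 gene encodes the counterpart of yeast Noc2, which travels with large subunit precursors (WBGene00007413, chromosome II, 10339727 to 10345112, minus strand), and it had no peak of any of the 3 lists within 500 bp. The nearest was a pooled peak of signal 10.98, rank 17869 and −log10 q 0.15, at −888 bp. The pro-3 gene, an SDA1 homolog, likewise of large subunit assembly (WBGene00012676, chromosome V, 19101347 to 19118412, minus strand), had a pooled peak of signal 12.8 and rank 13624 inside the gene, at 340 bp. The signal was 6.72 at rank 20343 in replicate 1, and replicate 2 had none in reach. Its −log10 q was 0.23 in the pooled list and 0.15 in replicate 1, against 2.53 for the pooled peak of nst-1. The coding gene Y39B6A.13 lies on the same strand and ends 92 bp before pro-3. A pooled peak of signal 32.9 and rank 2301 was at the start of Y39B6A.13, where the divergent gene Y39B6A.74 also starts, with rank 1902 in replicate 1 and 5453 in replicate 2.

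At ncl-1, which encodes a B-box and NHL repeat protein that limits nucleolar size in the worm (WBGene00003559, chromosome III, 7719729 to 7738105, plus strand), the pooled peak had a signal of 20.3 and rank 5725, at −157 bp. The replicates placed it apart, at 24 bp with a signal of 8.31 and rank 14316 in replicate 1, and at −246 bp with a signal of 12.5 and rank 3345 in replicate 2. The −log10 q was 0.80 in the pooled list, 0.27 in replicate 1 and 2.36 in replicate 2. The gene has 8 annotated transcript starts. With any of them counted, the strongest pooled peak was at −90 bp from one of these starts, with a signal of 31.4 and rank 2498, below the reproducible set. Inside the 18377 bp of the gene the pooled list held 21 summits, the highest with a signal of 34.8, and none was a reproducible peak.

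The subunit of RNA polymerase I in the set, rpoa-2 (WBGene00008781, chromosome I, 9280923 to 9286576, minus strand), had a strong peak just out of reach. The reproducible peak at 9287046 to 9287401 had a signal of 60.1 and rank 613, with the summit at −648 bp. The signal was 44.01 at rank 405 in replicate 1 and 15.8 at rank 1981 in replicate 2. The divergent gene prom-1, known for its part in meiosis, starts at −867 bp from rpoa-2, and the summit was at −219 bp from that start. With a reach of 1000 bp rpoa-2 joined the genes with a peak, for 6 of 9, where 8.47% of all coding genes had one. The count was also 6 when any overlap of a peak with the 500 bp window counted, where the share was 7.38%. With a reach of 250 bp lpd-7, at −257 bp, dropped out, for 4 of 9, where the share was 4.21%. Just inside the set by signal was nst-1 (40.5), and the strongest pooled peak in reach of a member outside it was that of ncl-1 (20.3).

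**Figure D2:**
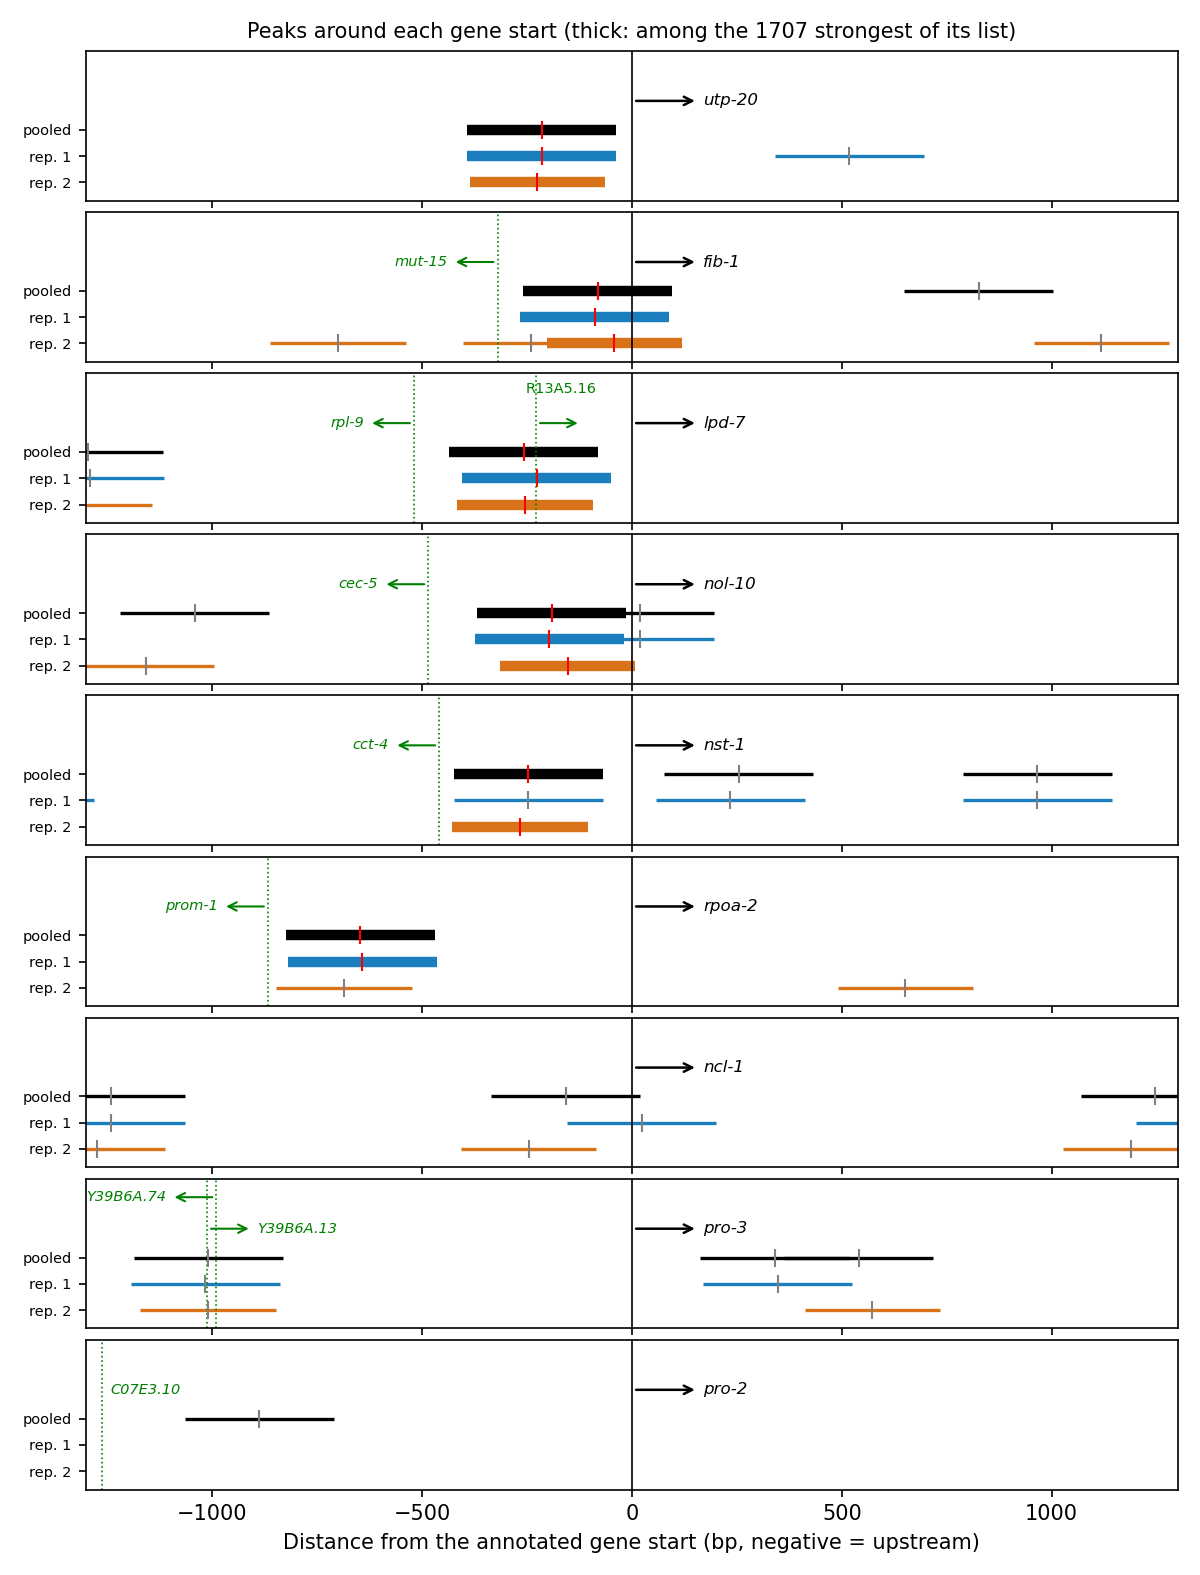
Peaks around the start of each of the 9 genes, as distance from the annotated start in bp with upstream to the left; bars are peaks of the pooled list (black), replicate 1 (blue) and replicate 2 (orange), thick where the peak is among the 1707 strongest of its list, with a tick at the summit, and green arrows are neighbouring starts. The summits of the strongest peaks in the top 5 panels lie between −267 and −42 bp in every list, and that of rpoa-2 lies near prom-1, at −648 bp in the pooled list.

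Any entry of the pooled list, background included, was in reach of 7 of the 9 genes, where the share of all coding genes was 37.2%. For replicate 1 the count was 7 of 9 (all coding genes 37.7%) and for replicate 2 it was 6 of 9 (all coding genes 37.6%). Among the 1707 strongest peaks of a replicate, replicate 1 had 4 of the 9 genes (all coding genes 6.42%) and replicate 2 had 5 (all coding genes 6.13%). Thus utp-20, fib-1, lpd-7 and nol-10 were within the strongest 1707 in both replicates, as were 790 of the 1342 coding genes with a reproducible peak (58.9%). Summits of the 5 genes moved by a median of 27 bp between replicates, from 11 bp at utp-20 to 47 bp at fib-1. For the 1329 of those coding genes with a peak in both replicate lists the median was 34 bp, with quartiles of 16 and 65 bp. Over all members with a peak in reach, weak peaks included, the median rank was 427 in replicate 1 (7 genes) and 692.5 in replicate 2 (6 genes). The 3 other coding genes with a reproducible peak whose ranks were most like these medians were ZK632.10 and ZK632.11, which share a peak (444 and 665), and klp-19 (437 and 746). Likeness was the distance between log2 ranks over the 2 replicates.

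Of the 5 peaks, 4 lay between 2 divergent coding starts, at fib-1, nol-10, lpd-7 and nst-1. Of all 1007 reproducible peaks at a coding start, each counted once, 294 did (29.2%). A peak between 2 starts can be picked through either gene, so a set of peaks picked by gene holds more of them. The 2 shares are therefore unlike, and nothing is read from the difference. Which gene of such a pair a peak belongs to cannot be told from its position. No reproducible peak had its summit inside the body of any of the 9 genes, and the strongest pooled summit there had a signal of 34.8, at ncl-1. In the other members it was 8.23 at fib-1, 10.49 at nst-1, 11.7 at nol-10, 12.4 at lpd-7, 13.4 at rpoa-2 and 14.5 at pro-3, and utp-20 and pro-2 had none.

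The motif GAGA, the CCAAT box and the palindrome known as the E-box, CACGTG, were searched on both strands from 50 bases before to 50 bases after each summit. No match of one overlapped a match of another in the 5 stretches printed above. GAGA was in all 5 windows, where 68.3% of the 1684 nuclear reproducible peaks and 54.3% of the windows of that length centred 200 bp upstream of all coding starts held it. Neither CCAAT (15.8% of the peaks, 18.4% of the upstream windows) nor CACGTG (3.15% and 1.53%) was in any of the 5. With 100 bases on each side, CCAAT was in 2, at fib-1 (first base at −27 bp) and lpd-7 (−187 bp), as the capitals above show. A window ranged from 46.5% A and T at fib-1 to 64.4% at utp-20. The median was 54.5% for all reproducible peaks and 66.3% for the upstream windows.

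To see how the 9 genes sit among their pathway, 93 names of ribosome assembly genes were listed from general knowledge, with earlier results of these data known. Of these, 74 were found in the annotation, 1 of them a repeat and 9 the genes above, which left 64 further genes. The tagged gene F23B12.7 is among the 64, under large subunit assembly. A reproducible peak was at 19 of the 64 (29.7%), beside the 6.72% of all coding genes given above. All 19 summits were upstream, from −341 to −52 bp. Of the 19 peaks, 12 lay between divergent starts, where 29.2% of the 1007 reproducible peaks at a coding start did. The 19 were picked by gene and the 1007 were not, so these shares are unlike too. Within the strongest 1707 in both replicates were 11 of the 19 genes, beside 58.9% of coding genes with a reproducible peak. With each peak counted for its nearest start alone, 12 of the 64 had a peak, against 5.02% of all coding genes. With reproducible peaks of more than median signal it was also 12, against 3.58%.

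The snoRNP proteins had 5 of 8, beside fib-1. These were snu-13 (signal 70.5), which binds the kink-turn of guide RNAs, the AAA ATPases ruvb-2 (64.9) and ruvb-1 (47.2), which help to assemble snoRNPs, nol-58 (57.2), a core partner of fibrillarin, and dkc-1 (55.8), the pseudouridine synthase dyskerin. Ranks of snu-13 were 1110 in replicate 1 and 176 in replicate 2, and those of dkc-1 were 435 and 1986. The replicates thus ordered these genes differently.

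Genes of RNA polymerase I and its factors had 2 of 6 without rpoa-2. The highest signal of the 64 further genes was at tif-1A (85.3, ranks 428 and 121), named for the factor that brings the polymerase to the rRNA promoter. The other was rpac-19 (53.3), a subunit shared with RNA polymerase III. The large subunit rpoa-1 had a pooled signal of 30.2 and rank 2691, below the set.

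Small subunit assembly had 4 of 15 besides utp-20 and nol-10, namely rbd-1 (67.2), an RNA-binding protein needed for rRNA processing, Y61A9LA.10 (57.5), wdr-46 (46.5) and nath-10 (43.9), the counterpart of the RNA acetyltransferase NAT10. Large subunit assembly had 5 of 19 besides lpd-7 and nst-1. They were the rRNA methyltransferase gene nsun-5 (63.5), nifk-1 (55.1), the GTPase gene nog-1 (50.4), lpd-6 (43.5) and eif-6 (40.4), the factor that keeps the subunits apart.

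The exosome and its partners, which trim rRNA precursors, had 2 of 13, both of high signal. At exos-8 it was 84.3 and at exos-4.1 it was 80.1, both in the range of fib-1, while the other 11 had pooled signals of at most 29.3 (mtr-4) or no pooled peak. Of the 3 other nucleolar genes, nucl-1, the worm nucleolin, had a reproducible peak (50.04). Its ranks were 770 in replicate 1 and 4632 in replicate 2.

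Any pooled peak was in reach of 54 of the 64 further genes (84.4%), beside 37.2% of all coding genes. Of the 45 further genes without a reproducible peak, 35 had a weaker pooled peak in reach, with a median signal of 18.8. The strongest of these were just under the threshold, at rbm-28 (37.6), puf-12 (36.99), nol-56 (36.4), dao-5 (36.2), garr-1 (35.02) and riok-2 (34.3). Here nol-56 and garr-1 encode core proteins of the snoRNPs, and dao-5 encodes a nucleolar phosphoprotein.

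**Figure D3:**
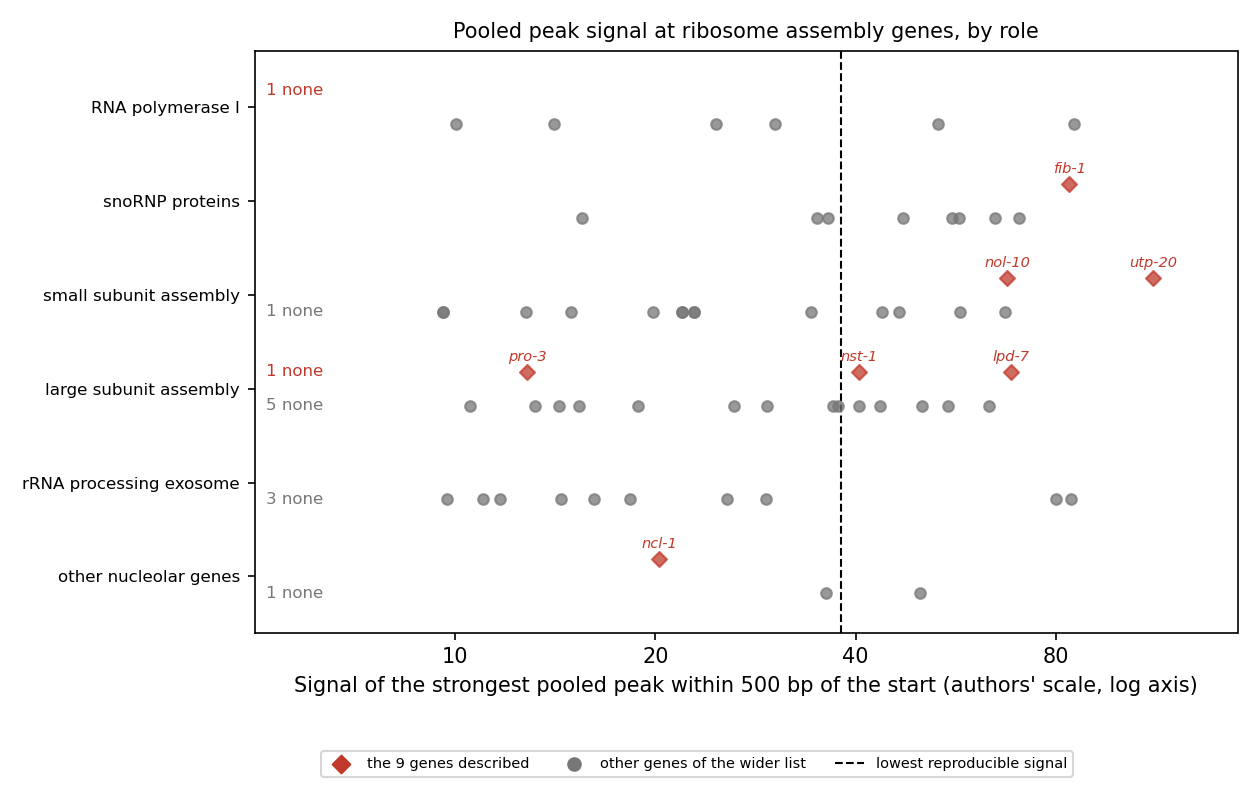
Signal of the strongest pooled peak within 500 bp of the start (authors' scale, log axis) for the 9 genes (red diamonds) and the 64 further genes (grey circles), by role; the dashed line is the lowest reproducible signal, 37.99, and "none" counts genes with no pooled peak in reach. Of the 9 genes, 5 lie right of the line, from nst-1 at 40.5 to utp-20 at 112, and among the exosome genes a gap separates exos-8 and exos-4.1 from the rest.

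The tagged gene F23B12.7 (chromosome V, 14449697 to 14452976) had no reproducible or pooled peak in reach, with ranks of 5682 in replicate 1 and 11397 in replicate 2. The unc-119 gene had none in the reproducible, pooled and replicate 1 lists and one of rank 28112 in replicate 2. Whether the control carried the same transgene is not given in the sources used here.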

How the data were processed

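The data were peak lists from 2 biological replicates of 1 group. Per the deposited notes, the authors called peaks for each replicate and for the pooled reads against a control, then kept those that passed an IDR threshold. No source used here names the aligner, the caller, that threshold or a version. Each list holds the authors' deposited signal value and the authors' −log10 q-value of each peak, on scales of their own. The score and p-value columns, constant in each list, and the ce10 lists, were not used.

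Genes came from Ensembl release 115 (WBcel235), and 3 names of the wider list missing there were found through RefSeq locus tags. All nuclear peaks fit the lengths of the 6 nuclear chromosomes. Summits were searched within 500 bp of gene starts with Python 3.11.15, pandas 2.3.3 and numpy 2.4.6, after the search was checked on planted peaks. Equal values got their mean rank. There is no contrast, so no test was run. The replicates may differ for technical reasons, since the labels do not say how they were grown.

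The members and gene lists were chosen with earlier results of these data known. Named are the 9 members, the wider-list genes with a reproducible peak, the 6 of highest pooled signal without one, genes sharing or neighbouring a member's peak, F23B12.7, unc-119 and the 3 genes of most similar ranks. Besides these, rpoa-1, mtr-4 and the genes at peaks with the shared bases were named after their values were seen. Alternatives changed the reach, the gene start, the peak set, the overlap rule, the ranking and the window. Leaving out genes that start within 500 bp behind another on the same strand was added after the data were seen.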

Additional observations from a re-analysis of the deposited data

How the results depend on the processing

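No paired analysis was possible because there was 1 group and no test. The count of members with a peak stayed between 4 and 6 under all alternatives tried. That of the 64 further genes was 13 to 20, except 12 with the nearest coding start alone and 12 with reproducible peaks of more than median signal. Without genes close behind another on the same strand it was 16 of 38, where 7.05% of all such coding genes had a peak. The median summit of the members, −214 bp, was −202.5 bp with a reach of 250 bp and −231 bp with 1000 bp, and ranged from −225 to −214 bp when either replicate was left out. Over the 5 members with a reproducible peak, the median rank percentile in the pooled list was 1.42. It was 1.98 when ranked by −log10 q, a value that many peaks share. The percentile by signal ranged from 1.42 to 1.85 when either replicate was left out. CCAAT was in 0 of 5 windows, in 2 with 100 bases on each side, and in 1 when either replicate was left out, where the window follows that replicate's summit. CACGTG was in none under any alternative, and GAGA was in 4 or 5. Depth is unknown, so how far it limits the weaker peaks cannot be stated.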

Other observations

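The 10 bases shared by fib-1 and utp-20, GAGCGCACTT, were within 100 bases of the summit at 44 reproducible peaks. Of these, 35 were at a coding start (79.5%), beside 1007 of all 1684 nuclear reproducible peaks (59.8%). Their median signal was 59.2, beside 52.2 for all, and their ranks ran down to 1684. The middle of the 10 bases lay at a median of 22 bp from the summit. The strongest were the peak of rpl-20 and Y17G9B.5 (signal 237), that of Y71H2AM.20 (162), that of rab-18 and kbp-4 (136) and that of lin-54 and rpl-12 (134). Among the coding genes in reach of all 44 peaks, rpl-20, rpl-12 and rpl-32 (signal 61.6) are named for proteins of the large cytosolic ribosomal subunit. The genes mrpl-1, mrps-24, mrpl-45 and mrpl-47 are named for proteins of the mitochondrial ribosome. No theme is read from these genes. The bases were chosen for their number among these peaks, so these values are a description.

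The genes of rRNA themselves had no reproducible peak that overlapped them or the 500 bp around them (0 of 20 annotated nuclear rRNA genes). Among all coding genes, 7.38% had a reproducible peak overlapping the 500 bp window at the start. With 20 genes and so low a share, nothing is read from the count of 0. The pooled list had a peak at 1 of the rRNA genes, and each replicate list at 2. By summits within 500 bp of the start, a different rule, the shares of all coding genes were 37.2% (pooled), 37.7% (replicate 1) and 37.6% (replicate 2). The rRNA genes are repeated in the genome, and how the authors treated reads that match several places is not given in the sources used here.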
